A study of Mus musculus with 5 samples.

Results

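BCLAF1 peaks of fixed and native LSK cells were compared, with 1 CUT&RUN library on each side. LSK cells are Lineage-, Sca1+ and Kit+ blood progenitors, the compartment of the marrow and fetal liver that holds the stem cells. The peaks were taken from chromosomes 1 to 19 and X, and those in the 40 kb that begin at position 3000000 of chromosome 9 were left out. This gave 648 native and 254 fixed peaks, 902 of the 7045 peaks deposited for all 5 libraries. A native and a fixed peak were called shared where they overlapped by at least 1 bp, and the others are called native-only and fixed-only.

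Both LSK libraries were made from 50000 sorted wild-type (WT) cells with the same antibody to BCLAF1, used at 1:50. By the protocol these are marrow cells of adult mice, with 2 to 3 animals in a pool, whereas the tissue label reads E17.5 fetal liver, so their age and organ are not settled by the labels. The fixed cells were treated with 0.1% formaldehyde free of methanol for 2 min and quenched with 125 mM glycine, and the protocol pairs fixation with a wash buffer that also holds Triton X-100 and SDS. Fixation and detergent therefore cannot be told apart. The same antibody was used on 50000 E17.5 fetal liver haematopoietic stem cells (HSCs) per library, pooled from 24 to 26 embryos, with 2 WT libraries and 1 library labelled Bclaf1 knockout (KO). Under the same rule these lists held 362, 452 and 3890 peaks. Peaks say nothing of gene expression, so the identity of the sorted cells could not be checked against their markers. With 1 library a side no difference between fixed and native cells has a replicate check, and no test was run. All intervals are 95% intervals that treat peaks or reads as independent and cover counting error only. Those of shares, medians and counts are exact, and those of differences are approximate, combined from the intervals of both sides.

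BCLAF1 is a nuclear protein rich in arginine and serine that is known for roles in transcription and pre-mRNA splicing, and it is not known to read a DNA motif of its own. In CUT&RUN an antibody tethers micrococcal nuclease to the chromatin of permeabilised cells, and the short fragments that it cuts loose diffuse out and are sequenced. Native cells keep only contacts that survive the washes, whereas light formaldehyde fixation bonds proteins to DNA and to each other, which can hold weak contacts in place and can also make chromatin harder to cut and release. The KO list is the control for signal that does not need BCLAF1, as far as its genotype label holds.

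Few peaks lay at gene starts, and the sequences of those that did were read first. Of the 32619 RefSeq promoter windows (assembly GRCm38.p6, 250 bases before to 50 after a gene start), 5 were touched by a native peak and 0 by a fixed peak. For the fixed list that was 0 of 249 peaks on the 19 chromosomes covered, which allows a share of up to 1.20%. One of the 5, at the predicted gene Gm15564, was touched by 1 base of a shared peak. The other 4 belong to native-only peaks, which also overlapped HSC KO peaks, and are printed below. They show only the part of each native peak that fell in the window, which was the whole peak at Gm40237 alone. They read 5′ to 3′ on the strand of the gene, and capitals mark the bases under the native peak.
Gm40237, chr4:118547156-118547455, plus strand: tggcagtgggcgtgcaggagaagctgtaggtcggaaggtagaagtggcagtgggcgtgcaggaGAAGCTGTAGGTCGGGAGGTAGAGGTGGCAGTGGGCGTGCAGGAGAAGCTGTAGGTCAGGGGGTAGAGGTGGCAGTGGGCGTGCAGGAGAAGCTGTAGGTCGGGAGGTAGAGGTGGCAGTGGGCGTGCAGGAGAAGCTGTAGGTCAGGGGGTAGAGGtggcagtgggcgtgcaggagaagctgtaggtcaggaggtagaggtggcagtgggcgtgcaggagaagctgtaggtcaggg
Gm13822, chr5:114922212-114922511, minus strand: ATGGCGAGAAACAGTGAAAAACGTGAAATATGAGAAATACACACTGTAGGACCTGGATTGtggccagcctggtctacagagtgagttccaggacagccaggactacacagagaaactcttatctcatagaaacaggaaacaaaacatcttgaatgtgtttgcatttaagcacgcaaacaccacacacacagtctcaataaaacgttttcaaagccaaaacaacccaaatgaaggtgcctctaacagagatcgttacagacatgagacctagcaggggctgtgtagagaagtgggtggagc
Relt, chr7:100863364-100863663, minus strand: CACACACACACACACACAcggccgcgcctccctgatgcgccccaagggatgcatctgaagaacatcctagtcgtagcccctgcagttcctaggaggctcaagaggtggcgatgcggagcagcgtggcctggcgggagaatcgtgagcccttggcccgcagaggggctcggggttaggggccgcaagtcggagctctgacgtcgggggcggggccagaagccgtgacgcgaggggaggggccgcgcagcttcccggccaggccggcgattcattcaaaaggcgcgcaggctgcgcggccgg
Stc2, chr11:31370012-31370311, minus strand: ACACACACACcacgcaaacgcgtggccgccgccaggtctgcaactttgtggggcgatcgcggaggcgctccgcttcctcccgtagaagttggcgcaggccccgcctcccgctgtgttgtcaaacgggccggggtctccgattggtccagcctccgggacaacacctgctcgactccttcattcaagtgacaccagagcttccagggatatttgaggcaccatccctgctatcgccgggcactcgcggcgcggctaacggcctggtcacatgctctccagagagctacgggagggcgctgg

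The window of Gm40237, a predicted gene, held the whole native peak of 157 bp (chr4:118547219-118547375), which had 30 reads at its summit and a fold enrichment over local background of 7.99. Its sequence is a tandem repeat. Shifted by 88 bases the window matched itself at 97.6% of positions, against a median of 34.0% for the best shift of 5 to 100 bases over all windows, and only 1 window of 32619, this one, reached that value. Relt, a receptor of the tumour necrosis factor family, and Stc2, the secreted hormone stanniocalcin 2, were touched at the upstream edge of their windows, over 18 and 10 bases. Their peaks were 115 and 92 bp wide, so most of the sequence under these peaks is not shown. Both covered stretches, of 18 and 10 bases, alternate A and C. The letters ACACACACAC, on either strand, occur in 487 of 32619 windows (1.49%). In 33 (0.101%) the window begins with these letters or with the same alternation started from C. The peak at the predicted gene Gm13822 was 127 bp wide, covered 60 bases of its window and had 28 reads. It lay 565 bp from Oasl1, an interferon-induced gene of the oligoadenylate synthetase-like family. A match of letters describes these windows and is not evidence of a binding site.

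Of the 254 fixed peaks, 62 overlapped a native peak (24.4%, interval 19.3 to 30.2%). That share was 53.8% with −log10 q of at least 5 in both lists, 58.9% with 6 reads or more and 15.4% with lists of equal size. Of the 648 native peaks, 61 overlapped a fixed peak (9.41%, interval 7.28 to 11.9%), a share that was 15.4% with lists of equal size. These made 62 pairs, which merge into 52 loci where pairs within 10 kb are joined. Where the lists met, they met closely: the median pair overlapped by 93.5 bp, the smallest overlap was 47 bp, and the median pair covered 100% of its shorter peak. The summits of a pair lay a median of 10 bp apart, and 56 of 62 were within 100 bp. Fixed-only peaks were in contrast far from native ones, with 3 of 192 within 10 kb of a native peak and the nearest 347 bp away. Most shared fixed peaks were thus close matches, and near misses were few. Exceptions by summit included the pairs in Cdk8 (189 bp apart), Zc3h7a (159), Camk2b (145), Thy1 (130) and Cmss1 with Filip1l (109).

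Peaks of the 2 lists rested on very different numbers of reads. The total number of reads is not part of the files used here, but the number of reads at each summit could be solved from the deposited fold enrichment and p-value for all 648 native and all 254 fixed peaks. Native peaks held 6 to 5706 reads, with a median of 14. Fixed peaks held 3 to 1480, with a median of 4. The native list had a floor to its local background, 0.327 reads, which 284 peaks with 6 to 35 reads shared. The fixed list showed no such floor: its lowest background was 0.0220 reads for peaks of 3 reads, 0.0293 for 4 and 0.0366 for 5, so that it followed the reads of the peak itself. The fixed background is therefore known only as at most 0.0220, and the native background was at least 14.9 times as high. Background reads depend on depth and on noise, which cannot be told apart here.

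Scaled by that ratio, the 3 reads of the weakest fixed peak correspond to at least 44.7 reads in the native library (interval of the count, 9.22 to 131), well above the native minimum of 6. Of the 648 native peaks, 551 had fewer reads than that. Of these 551, with fewer than 45 reads each, 34 were shared (6.17%, interval 4.31 to 8.52%). Among the 97 with 45 reads or more, 27 were shared (27.8%, interval 19.2 to 37.9%). These intervals do not overlap, but they treat peaks as independent. Of the 70 peaks with 45 reads or more that were not shared, 34 had another native peak within 10 kb. The intervals may therefore be too narrow, and their separation is not a test. Of the 37 native peaks with 108 reads or more, 20 were shared (54.1%, interval 36.9 to 70.5%) and 17 were not. The one with the most reads among the 17 had 2190, and all 17 lay on HSC KO peaks. In all, 70 native peaks with at least 45 reads had no fixed partner, and each of these 70 lay on an HSC KO peak. So did all 27 shared peaks with at least 45 reads, so this does not set the unshared peaks apart. The part of depth in these shares was not tested.

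**Figure D1:**
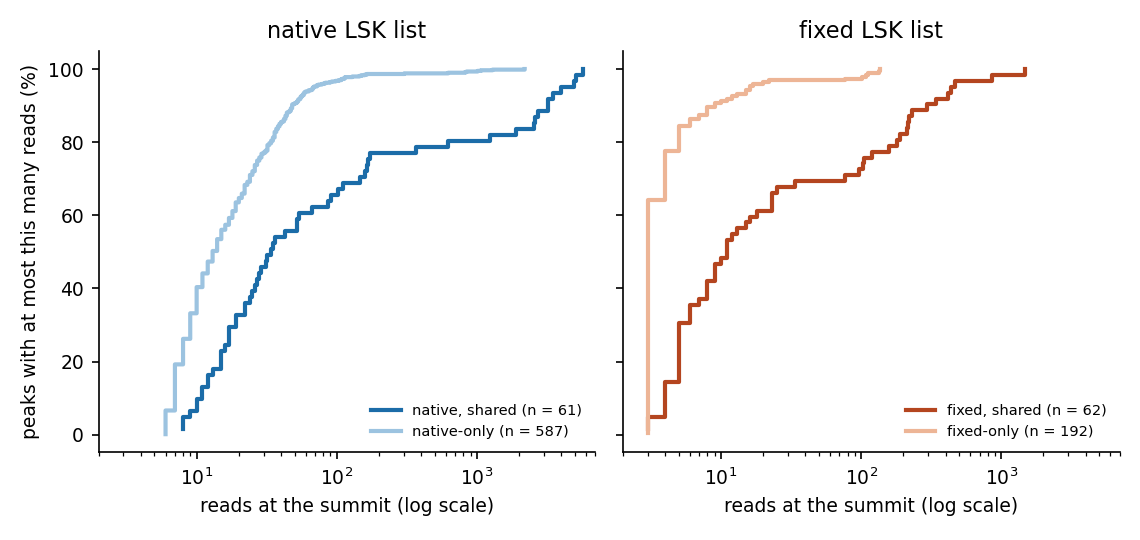
Cumulative share of peaks, in percent on the y axis, with at most the number of reads on the log x axis, for shared and list-only peaks of the native list (left) and the fixed list (right). In both panels the curve of the shared peaks lies to the right, with medians of 34 against 13 reads in native and 11 against 3 in fixed cells, and 64.1% of fixed-only peaks are at 3 reads.

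Shared peaks had the most reads in both lists. The median was 34 reads for native shared against 13 for native-only peaks, and 11 for fixed shared against 3 for fixed-only peaks. Of the 192 fixed-only peaks, 123 (64.1%) had just 3 reads, the fewest in the list, 39 had 4 or 5, and 12 had 6 to 9. A further 12 had 10 to 44 reads and 6 had 77 to 137. The fixed-only class was thus mostly a set of minimal calls with a small strong tail.

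Shared peaks also ranked high by fold enrichment, the value of column 7, within each list. Ranks are given as percentiles, with 100 for the strongest peak, since enrichments are not on one scale in the 2 lists. The median percentile was 81.1 for fixed shared peaks (interval 73.2 to 86.6) and 32.7 for fixed-only peaks. This difference of 48.4 fell to 17.0 where both lists were held to a −log10 q of at least 5, and to 10.3 with 6 reads or more. In the native list it was 75.9 (interval 61.4 to 85.0) for shared and 47.8 (interval 41.4 to 51.9) for native-only peaks. From the weakest to the strongest of 5 rank groups, which differ in size through ties, the shared number in the fixed list was 1 of 39, 2 of 87, 7 of 33, 20 of 43 and 32 of 52. The last is 61.5%. In the native list it went from 1 of 137 (0.730%) to 27 of 130 (20.8%). Of the 50 strongest peaks, 32 fixed and 19 native ones were shared.

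**Figure D2:**
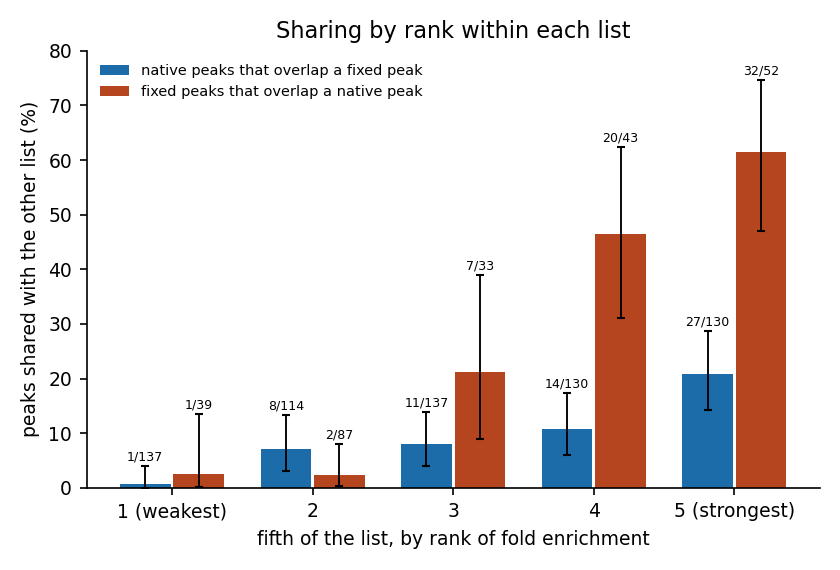
Share of peaks that overlap a peak of the other list, in percent with exact 95% intervals and the counts above the bars, for 5 groups of fold-enrichment rank from weakest to strongest. The share is highest in the strongest group of both lists, at 20.8% of native and 61.5% of fixed peaks.

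Shared peaks were wider than list-only peaks by median in both lists, by more in the native list. Native shared peaks had a median width of 155 bp (interval 111 to 227) against 94 bp (interval 90 to 96) for native-only peaks. Fixed shared peaks had a median of 102 bp (interval 88 to 121) and fixed-only peaks 90 bp (interval 86 to 93). This fixed difference of 12 bp was 33 bp with −log10 q of at least 5 and 32.5 bp with 6 reads or more. Within the pairs the native peak was wider in 45 and the fixed peak in 17, with a median difference of 28.5 bp. The fixed peak lay wholly inside the native one in 37 pairs and the reverse held in 11. Reads differed between these classes in the same direction as width, and the part of depth in the widths was not tested.

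**Figure D3:**
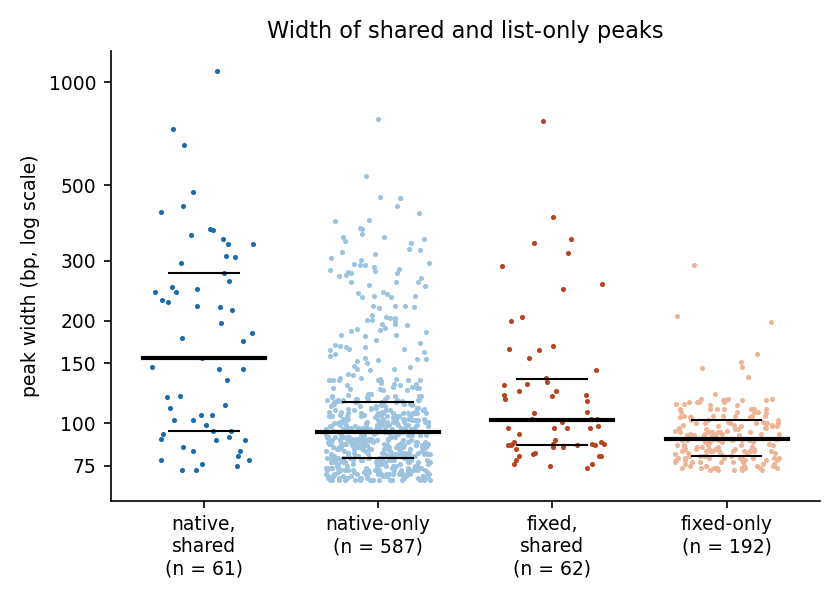
Peak width in bp, on a log axis, for the 4 classes, with 1 point per peak, a thick line at the median and thin lines at the quartiles. Native shared peaks spread up to 1079 bp with a median of 155 bp, while the other 3 medians lie between 90 and 102 bp.

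The reads of a pair differed widely between the libraries. The ratio of fixed to native reads ran from 0.0108 to 9.91 with a median of 0.333, and the background ratio was at most 0.0671. The ratio was above 0.0671 in 43 pairs, although a pair can only be seen where the fixed library gave at least 3 reads, which favours high ratios. In 10 pairs the fixed library had more reads than the native one in absolute number.

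Of these 10 pairs, 7 had more than 5 times the native reads, from 11 to 66 native and from 77 to 465 fixed reads. The fixed peak of highest enrichment was one of them, inside Dpp9 (17:56199993-56200095), which encodes a cytosolic dipeptidyl peptidase: it had 66 reads in native and 465 in fixed cells, with fold enrichments of 41.1 and 105. The others lay outside genes. A region at 2:60402756-60402840, 14703 bp from the phospholipase receptor gene Pla2r1, went from 52 native to 297 fixed reads. The region at 6:132463704-132463806 had 35 and 343 reads, and the one at 9:19575428-19575512, which lies 8046 bp from the olfactory receptor gene Olfr854, had 31 and 215. The last 3 of the 7 were at 1:12644766-12644853 with 34 and 189 reads, 17:4626167-4626570 with 22 and 218, and 11:25100082-25100202 with 11 and 77. In native cells 6 of the 7 peaks were 73 to 106 bp wide and the one at 17:4626167-4626570 was 310 bp, and all 7 overlapped HSC KO peaks.

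At the other end, 19 pairs had a ratio at or below that of the backgrounds, with 87 to 3989 native reads. Chl1, a neural cell adhesion gene, held a region at 6:103649063-103649292 that had 3505 native and 103 fixed reads. The top native peak by enrichment, X:143483003-143483113, which lies 35253 bp from the kinase gene Pak3, had 1231 native and 23 fixed reads. The region at 9:24542017-24542160, which lies 14887 bp from Dpy19l2, had 618 and 15, and that at 9:35305221-35305591, at 29264 bp from Rpusd4, had 3989 and 214. Cdk5rap2, which encodes a centrosomal protein, went from 369 to 4 reads. All 19 overlapped peaks of the HSC KO list and of both HSC WT lists. A ratio at or below 0.0671 can still lie above the true background ratio, which is only bounded.

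Some of the highest reads came from clusters of neighbouring peaks. In 14:19415719-19418906 there were 6 pairs with 1890 to 4893 native and 96 to 441 fixed reads, on a local background of 287 reads in native and 12.4 in fixed cells. In 2:98662238-98667328 there were 3 pairs, and they held the peaks with the most reads in both lists, 5706 native and 1480 fixed. A local background that high marks a region where reads pile up over a broad span. The region 12:3109870-3110117, 137311 bp from Rab10, stood first by mean rank, with 5063 native and 860 fixed reads. Of native shared peaks 27.9% had another native peak within 10 kb, against 16.5% of native-only peaks, and in the fixed list these shares were 24.2 and 1.04%.

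**Figure D4:**
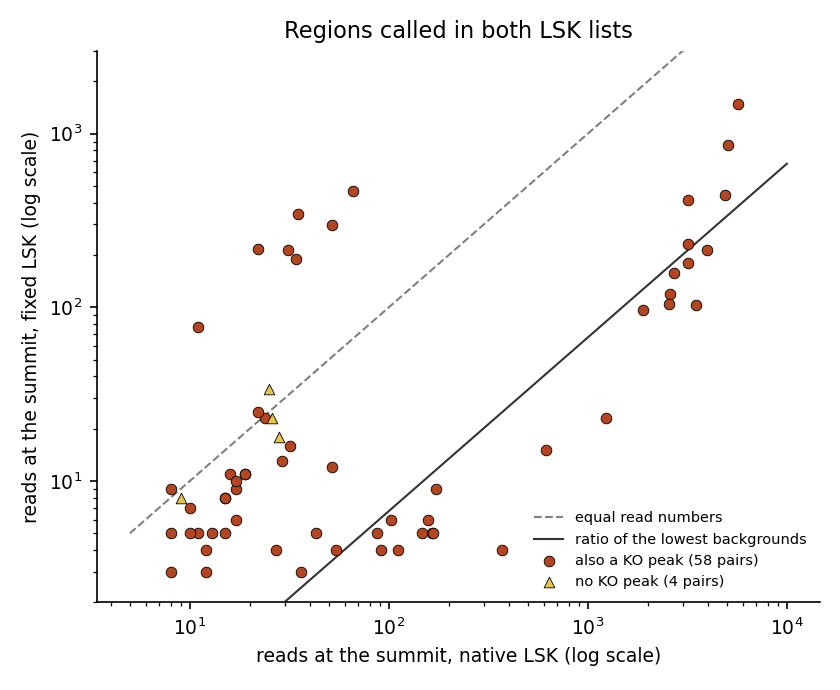
Native reads on the x axis against fixed reads on the y axis, both log, for the 62 shared pairs, with a dashed line for equal reads and a solid line for the ratio of the lowest backgrounds, at most 0.0671. Of the points 10 lie above equality and 19 on or below the solid line, and triangles mark the 4 pairs with no HSC KO peak.

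Fixed-only peaks rarely met the KO list, unlike the other 3 classes, which are native peaks or overlap one. Over all native peaks 534 of 648 (82.4%) lay on an HSC KO peak, and over all fixed peaks 76 of 254 (29.9%). The contrast thus follows in part from how the classes were formed. Of native shared peaks 57 of 61 lay on an HSC KO peak (93.4%, interval 84.1 to 98.2%), and of native-only peaks 477 of 587 (81.3%, interval 77.9 to 84.3%). This native difference of 12.2 percentage points changed sign, to -1.03 with −log10 q of at least 5 and to -7.69 with lists of equal size. Of fixed shared peaks 58 of 62 did so (93.5%, interval 84.3 to 98.2%), but of fixed-only peaks just 18 of 192 (9.38%, interval 5.65 to 14.4%). The KO list is also by far the longest of the 5. For the HSC WT 1 list the shares were 78.7% of native shared, 37.3% of native-only and 79.0% of fixed shared peaks. It met 0 of 192 fixed-only peaks, which allows up to 1.56%, and the HSC WT 2 list met 1 of 192. Among fixed-only peaks with 3 reads 3 of 123 lay on a KO peak, and among those with 4 or more 15 of 69. Most shared places were thus also called in the KO library, and whether any of it needs BCLAF1 was not tested.

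Of the 62 shared pairs 42 had a partner in all 3 HSC lists, so that these places were called in all 5 libraries. The 4 pairs with no HSC KO peak were the regions near Tubb3, a neuronal tubulin gene, near Def8, in Camk2b, a calcium-dependent kinase gene, and in Thy1, a surface glycoprotein gene of T cells, neurons and some stem cells. They were weak to moderate, with 28 native and 18 fixed reads at Camk2b, 9 and 8 at Thy1, and 25 and 34 near Tubb3. They were singled out after their values were seen.

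**Figure D5:**
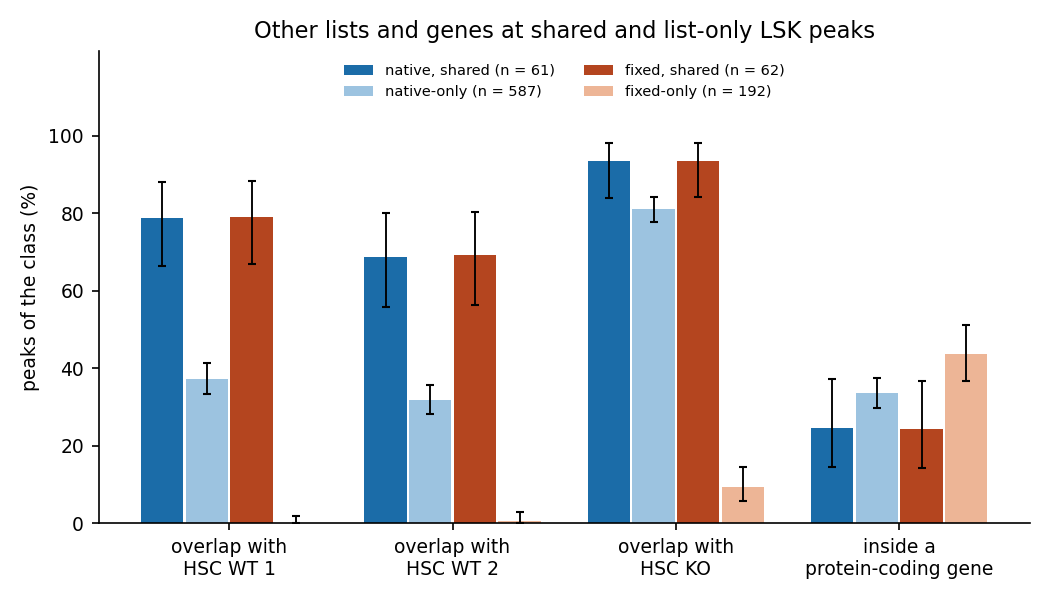
Share of peaks, in percent with exact 95% intervals, that overlap each HSC list or lie inside a protein-coding gene, for the 4 classes. Fixed-only peaks stand at 9.38% for HSC KO against 81.3 to 93.5% in the other classes, and have the highest share inside genes, 43.8%.

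The share of peaks inside genes was highest in the fixed-only class. Of fixed-only peaks 84 of 192 were inside a protein-coding gene (43.8%, interval 36.6 to 51.1%), against 15 of 62 fixed shared peaks (24.2%, interval 14.2 to 36.7%). In the native list 197 of 587 native-only peaks (33.6%, interval 29.7 to 37.5%) and 15 of 61 shared peaks (24.6%, interval 14.5 to 37.3%) were inside a gene. The intervals of the 2 fixed classes barely meet, and those of the native classes overlap broadly. Within the fixed-only class the share was close at both strengths, with 53 of 123 peaks with 3 reads (43.1%) and 31 of 69 with more (44.9%). The gene table gives no strand, exons or introns, so exonic and intronic peaks were not told apart.

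Starts of protein-coding genes were rarely near a peak. The starts came from the promoter windows, which cover 79.9% of protein-coding genes. Within 1 kb of one lay 10 of 587 native-only (1.70%) and 4 of 192 fixed-only peaks (2.08%). Of shared peaks 0 of 61 native and 0 of 62 fixed ones did so, which allows up to 4.92 and 4.84%. Over all peaks the shares were 1.54% in native and 1.57% in fixed cells. These totals include chromosome 18, which the windows do not cover. The windows of Gm15564 and Gm40237 described above are not part of these counts. The native-only ones were at Eif4ebp2, Stc2, Hbq1a, Gm32584, Slc4a4, Oasl1, Relt, Btbd16, Gmip and Asmt. The fixed-only ones were at Aifm2, Dcpp2, Pygm and Hlf, with 7, 4, 3 and 3 reads. Hlf encodes a transcription factor that marks HSCs, and its peak lay 535 bp downstream of the start.

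Of 21627 protein-coding genes on these chromosomes, 210 held or lay within 1 kb of a native peak (0.971%), 99 of a fixed peak (0.458%) and 16 of a shared region (0.074%). The native number was 88 with lists of equal size, and the fixed number was 34 with −log10 q of at least 5 and 23 with 6 reads or more. The genes with a peak were long: their median length was 136 kb for native and 153 kb for fixed peaks, against 17.3 kb for all genes. Long genes offer more bases to a peak, and the part of length in these counts was not tested. A gene had a peak in both lists in 22 cases (0.102%), and in 12 with 6 reads or more. In 6 of these, Atxn1, Cntnap2, Lrp1b, Mterf1a, Nav2 and Nkain3, the peaks of the 2 lists lay at different places in the gene.

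The 16 genes at shared regions spanned several roles. Among genes of transcription and chromatin, Cdk8, the kinase of the Mediator complex, had 29 native and 13 fixed reads. Jarid2, a cofactor of Polycomb repressive complex PRC2, held a pair of shared regions with 10 and 11 native and 7 and 5 fixed reads. Zc3h7a, which encodes a zinc finger protein, had 19 and 11. These were modest peaks, with native enrichments of 17.1 at Cdk8, 7.83 and 8.52 at Jarid2 and 12.0 at Zc3h7a. Native and fixed summits lay 189 bp apart at Cdk8 and 159 bp at Zc3h7a, against 20 and 8 bp at Jarid2.

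Among genes of metabolism and signalling, Lars2, the mitochondrial leucyl-tRNA synthetase, had 32 native and 16 fixed reads. Wls, which carries Wnt proteins to the cell surface, had a region 752 bp away with 165 native and 5 fixed reads. Il31ra, a cytokine receptor gene, had 16 and 11. Wls was thus deep in native cells and near the calling limit in fixed cells, whereas Lars2 and Il31ra differed less. Gphn, the scaffold of inhibitory synapses, had 13 and 5 reads, Cfap299 91 and 4, and Cmss1 and Filip1l, which overlap each other, shared a region with 24 and 23. The last of the 16, the predicted gene Gm40862, had 8 and 5.

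Native-only peaks lay at 196 genes (0.906%). Ablim1, an actin-binding protein gene, had 78 reads, and Litaf, a lysosomal membrane protein gene, had 57. Zbtb46, a transcription factor gene of dendritic cells, had 48. The highest enrichment was that of 2210408I21Rik, 90.1 with 623 reads. Other genes among the first 10 were Mamdc2 with 83 reads, Cuedc1 with 68, Mdga2 with 98, Cldn34d with 74 and Dop1b with 45. All 10 lay on HSC KO peaks, and all but Mamdc2 on an HSC WT peak. Of the 100 native peaks of highest enrichment, shared or not, 100 lay on an HSC KO peak and 93 on an HSC WT peak. Each of the 10 had more than the 44.7 reads to which 3 fixed reads scale at the least. That value is a lower bound (interval of the count, 9.22 to 131), and only 2210408I21Rik, with 623 reads, lay above the interval. Reads above 44.7 therefore do not show that the fixed library could reach these peaks, and the part of depth was not tested. Outside genes, the native-only peak with the highest fold enrichment, 91.0, was 6:103314600-103314725, with 303 reads, 195859 bp from Chl1.

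Fixed-only peaks lay at 83 genes (0.384%). Myo7a, an unconventional myosin of hair cells, had 112 fixed reads and an enrichment of 60.9 (7:98060017-98060101), and Ano2, a calcium-activated chloride channel gene, had 77 reads and 45.4 (6:125876911-125877108). Below these, reads dropped to 20 at Mterf1a, a mitochondrial transcription termination factor gene, and 13 at Marchf1, a ubiquitin ligase gene. Serpini1 and Ogt had 8 reads each, and Aifm2 and Snx6 had 7. Of these 10 genes, counting Runx1 and Mecom described next, HSC KO peaks were met at Myo7a and Aifm2.

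Both Runx1 and Mecom encode transcription factors of HSCs. Runx1, required for blood stem cells to form, held a fixed-only peak at 16:92644182-92644341 with 12 reads and an enrichment of 11.8, and another at 16:92695532-92695737 with 12 reads and 11.3. The latter lay 1592 bp downstream of an annotated start. Mecom, which encodes EVI1 and maintains HSCs, held one at 3:29986246-29986328 with 11 reads and an enrichment of 11.1. These are among the 18 fixed-only peaks with 10 reads or more. Native cells had no peak in either gene, and none of these Runx1 and Mecom peaks overlapped an HSC WT or HSC KO peak.

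Outside genes, 4 fixed-only peaks were as strong as those in Myo7a and Ano2. They were 14:104336950-104337049 with 137 reads, 1:44951218-44951301 with 135, 6:10186383-10186461 with 109 and 14:107075300-107075378 with 102. Nearest genes were 124626 bp away or further. HSC KO peaks were met by the first 2 and by the one in Myo7a, an HSC WT 2 peak by the third, and none by the last or by that in Ano2. No native peak lay within 378775 bp of any of these 6. Where 1 step of background is taken as 1 read, the span around them held 138 reads for the peak of 137, 136 for 135, 117 for 112, 109 for 109, 103 for 102 and 98 for 77. Reads outside the summit were thus few, with the most around the peak in Ano2.

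Lists of genes for blood cell types and for known roles of BCLAF1 were read for peaks inside or within 1 kb. Of 43 genes of HSC and progenitor identity, 3 met a native peak (Erg, Etv6 and Thy1, 6.98%) and 4 a fixed peak (Hlf, Mecom, Runx1 and Thy1, 9.30%). Only Thy1 was in both, with native and fixed summits 130 bp apart. The native reads were 7 at Erg and 6 at Etv6, which encode ETS transcription factors, close to the native minimum. These shares stand beside 0.971 and 0.458% of all genes, with a median length of 22.5 kb in the list and 17.3 kb over all genes. Those medians do not describe the genes that met a peak. Over all genes with a peak the median was 136 kb for native and 153 kb for fixed peaks. Erg, Etv6, Runx1 and Mecom are each longer than 153 kb. Hlf is longer than the list median but shorter than 136 kb, and Thy1 is shorter than 17.3 kb. The part of length in the shares of this list was not tested.

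Of 38 interferon response genes, Oasl1 met a native peak, with 28 reads, and 0 met a fixed peak. Of 42 genes of splicing and BCLAF1 partners and 25 genes of the DNA damage response and p53, 0 met a peak in either list. Over all genes the shares were 0.971% for native and 0.458% for fixed peaks, so counts of 0 in lists of this size lie near them. Markers of other cells were also few. There were 0 in both lists for 25 lymphoid, 20 myeloid and 15 megakaryocyte genes and for 42 cytosolic ribosomal protein genes. Of 20 erythroid genes, Ank1, a red cell membrane skeleton gene, had 44 native reads, and of 20 hepatocyte genes, Afp had 3 fixed reads at 638 bp. Of 18 endothelial and stromal genes, Pdgfra and Thy1 met native peaks and Thy1 a fixed one.

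Neuronal genes were the list with the most hits: 6 of 27 met a native peak (22.2%) and 4 a fixed peak (14.8%), namely Camk2b, Chl1, Cntnap2 and Thy1 in both lists and Gap43 and Grin2b in the native list. Cntnap2, a neuronal adhesion gene and one of the longest in the genome, had native peaks of 37 and 7 reads and a fixed peak of 3 reads elsewhere. Over all genes these shares were 0.971 and 0.458%. The genes of this list are long, with a median of 123 kb, and the list was chosen with earlier results of these data known. Lars2 was the only hit among 27 mitochondrial translation genes and Wls among 33 Wnt pathway genes, both in both lists. Over all 14 lists together, 13 of 389 genes met a native peak (3.34%), 10 a fixed peak (2.57%) and 6 both (1.54%). The matching shares of all genes were 0.971, 0.458 and 0.102%, and the part of gene length was not tested.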

How the data were processed

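BCLAF1 CUT&RUN was read from 1 peak list per library, made by the authors on build mm10, per the submitters' processing notes. Which aligner, caller, control and duplicate filter were used is not given in the sources here. Per the narrowPeak layout of the deposited files, each peak has a fold enrichment (a ratio of reads to local background), a −log10 p-value and a −log10 q-value, and a deposited score equal to the −log10 q-value times 10, rounded down. These are the authors' values and were used only within a list. The lowest deposited −log10 q was 2.23 in native and 2.17 in fixed cells.

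Native and fixed lists held 893 and 289 peaks. Left out were 65 and 18 in the chromosome 9 window, 57 and 6 on Y, and 123 and 11 on mitochondrial and unplaced sequences. Depth is not given. Reads and background of each peak were solved from fold enrichment, with a pseudocount of 1, and the Poisson p-value, and the solver was tested on simulated data. Intervals were Clopper-Pearson for shares and order statistics for medians. For differences these were combined by an approximate rule. Without molecular identifiers a read need not be its own molecule, so intervals and limits for a count of 0 (3 counts) cover counting error only.

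Gene positions came from RefSeq GRCm38.p6, the coordinates of mm10. That table gives no strand, so distances run to either gene boundary. Gene starts and sequences came from the RefSeq promoter table, and peaks on chromosome 18 were not analysed for these. Named were the 10 shared regions of highest mean rank, genes within 1 kb of shared regions (at most 20), the 10 genes at the strongest native-only and fixed-only peaks, and members of 14 gene lists at a peak (at most 30). One gene that this rule names is not reported here. Members and lists were chosen with earlier results of these data known. Alternatives were another overlap rule, −log10 q of at least 5, lists of equal size, other gene distances and no crowded peaks. Python 3.11.15, NumPy 2.4.6, pandas 2.3.3 and SciPy 1.17.1 were used.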

Additional observations from a re-analysis of the deposited data

Results flagged for a closer look

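Of the peaks outside the compared set, those in the chromosome 9 window made up a larger share of both LSK lists than of the HSC KO list. The window at the start of chromosome 9 held 7.28% of the deposited native and 6.23% of the deposited fixed peaks, against 1.51% of HSC KO peaks. Mitochondrial and unplaced sequences held 13.8% of native but 3.81% of fixed peaks, against 4.14% of HSC KO peaks. Chromosome Y went the other way, with 6.38% of native, 2.08% of fixed and 11.8% of HSC KO peaks. A share also depends on the length of a list, and the KO list is the longest, so the part of list length was not tested.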

How the results depend on the processing

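Of 146 alternative values over 17 results, 124 stayed near the main value, 20 moved and 2 changed sign. Differences below are shared minus list-only peaks, in percentage points for shares, percentiles for rank and bp for width. With −log10 q of at least 5, the fixed shared share was 53.8% (24.4% in the main comparison), the fixed differences were 68.0 on HSC KO (84.2), 33 in width (12) and 17.0 in rank (48.4), 34 genes met a fixed peak (99), and the native difference on HSC KO turned from 12.2 to -1.03. With lists of equal size, both shared shares were 15.4% (native 9.41%), the fixed rank difference was 54.3, the native differences were -7.69 on HSC KO and 16.0 on HSC WT (37.4), and 88 genes met a native peak (210). Without crowded peaks, the fixed share was 18.6% and the native HSC WT difference 49.4. With summits within 100 bp, the fixed difference on HSC KO was 70.8. With at least 6 reads, an alternative chosen after seeing the data, the fixed share was 58.9% and the native share 6.48%, the fixed differences were 67.4 on HSC KO, 32.5 in width and 10.3 in rank, 23 genes met a fixed peak and 12 both lists (22). The stricter settings drop most 3-read fixed peaks by construction. The lower share of shared peaks inside genes kept its direction under every alternative run. It was -29.9 to -15.8 in fixed and -16.3 to -6.88 in native cells. In fixed cells the interval covered both signs with lists of equal size (-30.1 to 2.03) and with at least 6 reads (-42.5 to 3.50). In native cells it did so in the main comparison (-19.9 to 4.29) and in most alternatives. The exceptions were summits within 100 bp and the chromosome 9 window kept. The alternatives reuse the same peaks, so their shared direction is not independent evidence.

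No paired analysis was possible because each side had 1 library, which also leaves no replicate to leave out. The weakest fixed peaks had 3 reads, which scale by the background ratio to at least 44.7 native reads, and that ratio does not separate depth from noise.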
